A study of Rattus norvegicus with 17 samples.

Results

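H3K9me3 regions that were called at more than 1 stage of the oligodendrocyte lineage are described here. The peaks of the H3K9me3 lists of oligodendrocyte precursor cells (OPC), immature oligodendrocytes (iOL) and mature oligodendrocytes (mOL) were joined wherever they overlapped or touched. This gave 9540 merged regions, and the 1310 regions that held peaks of at least 2 of the 3 lists (13.7%, 13.0 to 14.4) are called shared regions below. The other 8230 regions, called at 1 stage, are called single-stage regions and serve for comparison. The shared regions were chosen by the positions of their H3K9me3 peaks, so stage patterns, peak widths and the grouping of these regions are descriptions without a test. Percentages are followed by exact Clopper-Pearson 95% intervals, which treat regions as independent and cover counting error only.

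The study mapped 6 targets by chromatin immunoprecipitation with sequencing (ChIP-seq) in 17 libraries from primary cells of wild-type Sprague-Dawley rats, with 1 library for each target and stage. The cells of every group came from the cortex of pups at postnatal day 2 and were grown with PDGF-AA at 10 ng/ml and bFGF at 20 ng/ml, the mitogens that keep precursors dividing. The protocol text is the same for all 17 libraries and calls the isolated cells iOLs, including those of the libraries labelled OPC, so the stages here are those of the titles and cell type labels. The OPC libraries carry the label of mitogen treatment. The iOL and mOL libraries carry the label of treatment with the thyroid hormone T3, and the differentiation medium held T3 at 15 nM and ciliary neurotrophic factor at 10 ng/ml. The sources used here give neither the times in culture nor whether pups or cultures were pooled. Gene positions on the build of the files were not used here, so the cell types were not checked against marker genes. With 1 library per stage no difference between stages has a replicate check. The read depth of every library is unknown. The OPC list of H3K9me3 held 3149 peaks, the iOL list 827 and the mOL list 7103, and a region can be shared only where both lists were long enough to call it.

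H3K9me3 is a histone mark of silenced chromatin. It is laid down by methyltransferases such as SETDB1 and the SUV39H enzymes and is read by HP1 proteins. It keeps endogenous retroviruses and other repeats silent, marks pericentromeric satellites, and covers clusters of KRAB zinc finger genes. In oligodendrocytes, H3K9 methylation is known to accompany the compaction of chromatin as precursors leave the cell cycle and differentiate. H3K4me3 marks promoters and H3K27Ac marks active promoters and enhancers, so both are usually found away from H3K9me3. Brg1 is the motor subunit of BAF complexes, which move nucleosomes, and Olig2 is a DNA-binding protein needed to form the oligodendrocyte lineage.

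Most shared regions were those of OPC and mOL, the stages with the long lists. The pattern OPC and mOL without iOL was found at 913 shared regions (69.7%, 67.1 to 72.2). The pattern iOL and mOL was found at 181 regions (13.8%, 12.0 to 15.8) and the pattern OPC and iOL at 54 (4.12%, 3.11 to 5.34). Peaks of all 3 stages were found at 162 regions (12.4%, 10.6 to 14.3). The short iOL list had a peak at 397 of the 1310 shared regions, against 1129 for OPC and 1256 for mOL. Seen from the lists, 51.1% (47.7 to 54.6) of iOL peaks lay in shared regions, against 36.2% (34.5 to 37.9) of OPC peaks and 18.1% (17.2 to 19.0) of mOL peaks. The shared regions covered 2247 kb in all, and 355.6 kb of this belonged to the regions of all 3 stages.

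Shared regions were wider than single-stage regions, with a median of 1484 bp against 908 bp. This follows in part from the way they were chosen, since a wide peak meets other peaks more easily and joining adds width. Each list was cut by width into 4 classes of equal size, and the share of peaks in shared regions was higher in the widest class than in the narrowest. It was 22.0% in the narrowest and 52.5% in the widest class of OPC peaks. For iOL it was 30.4% and 82.1%, and for mOL 6.76% and 37.4%. Regions of all 3 stages were the widest pattern, with a median of 1948 bp and a range of 443 to 7657 bp. Within their own lists, the median percentile of width was 89.9 for their mOL peaks, 79.2 for their OPC peaks and 71.9 for their iOL peaks.

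The overlap that made a region shared was usually large. The longest stretch in common between peaks of different stages had a median of 940.5 bp, and it was 500 bp or more at 1234 of the 1310 regions and under 100 bp at 5. No region was shared through touching alone. Just inside the rule stood an iOL and mOL region at chr13:67616542-67617673 (all positions are in rat build rn4, 1-based), whose peaks had 18 bp in common. An iOL and mOL region at chr6:98549415-98551073 shared 19 bp and an OPC and mOL region at chr10:47504050-47506485 shared 31 bp. Just outside stood an OPC region at chr1:60008243-60009689, 1 bp from a region of another stage pattern. An mOL region at chr1:72590570-72591886 stood 2 bp away and an mOL region at chr4:173443264-173444326 stood 7 bp away. Such near misses were few: 49 single-stage regions lay within 100 bp of a region with another stage pattern, and 227 within 1000 bp.

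Width did not grow step by step from OPC to mOL. The width of a stage was taken as the summed width of its peaks in a region. At the 162 regions of all 3 stages the median was 1491 bp in OPC (443 to 5805), 813 bp in iOL (366 to 2735) and 1706 bp in mOL (383 to 7657). The iOL peaks were thus the narrow ones, while the OPC and mOL widths overlapped over most of their range. The iOL width was the smallest of the 3 at 153 of these regions (94.4%, 89.7 to 97.4). The order OPC, iOL, mOL from narrow to wide was found at 4 regions (2.47%, 0.677 to 6.20), and the reverse order at 3. The mOL width was the largest at 102 regions (63.0%, 55.0 to 70.4) and the OPC width at 58 (35.8%, 28.4 to 43.7). Regions of H3K4me3 and H3K27Ac with peaks at all 3 stages, taken as a background, grew at every step in 40.5% and 37.3% of cases.

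**Figure D1:**
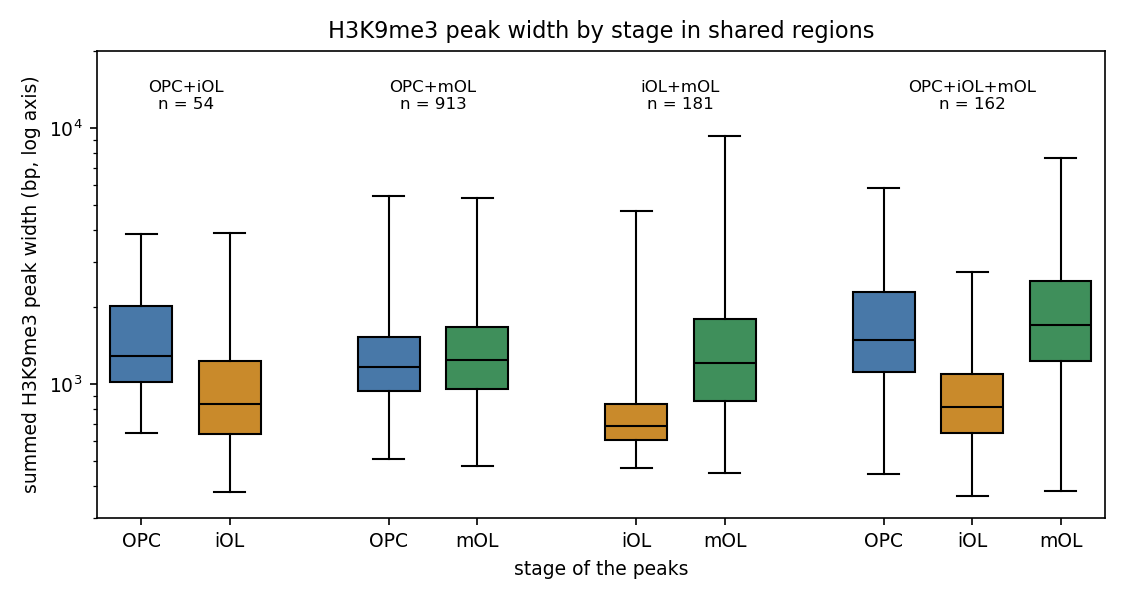
Summed H3K9me3 peak width in bp on a log axis for each stage, within each stage pattern of the shared regions. Boxes give the median and quartiles over regions, and whiskers reach the lowest and highest region. In every pattern with iOL the iOL box sits lowest, with medians of 684 to 832 bp.

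The same order was seen over all shared regions with peaks of a given pair of stages. From OPC to iOL, 10 of 216 regions were wider in iOL (4.63%, 2.24 to 8.35), and the median ratio of iOL to OPC width was 0.61. The background was 46.2% of H3K4me3 regions and 59.6% of H3K27Ac regions called at both stages. From iOL to mOL, 318 of 343 regions were wider in mOL (92.7%, 89.4 to 95.2), with a median ratio of 1.79. Here H3K4me3 stood at 91.9% and H3K27Ac at 72.9%. From OPC to mOL, 629 of 1075 regions were wider in mOL (58.5%, 55.5 to 61.5), with a median ratio of 1.05 and quartiles of 0.87 and 1.30. The H3K4me3 share was 89.3% and the H3K27Ac share 75.4%. Changes of 2-fold or more between OPC and mOL were rare and balanced, with 26 regions wider in mOL and 20 wider in OPC. In the whole lists iOL peaks were likewise the narrowest, but OPC peaks were wider than mOL peaks, with medians of 1056 bp in OPC, 659 bp in iOL and 942 bp in mOL. The part of depth or peak calling in these widths was not tested.

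**Figure D2:**
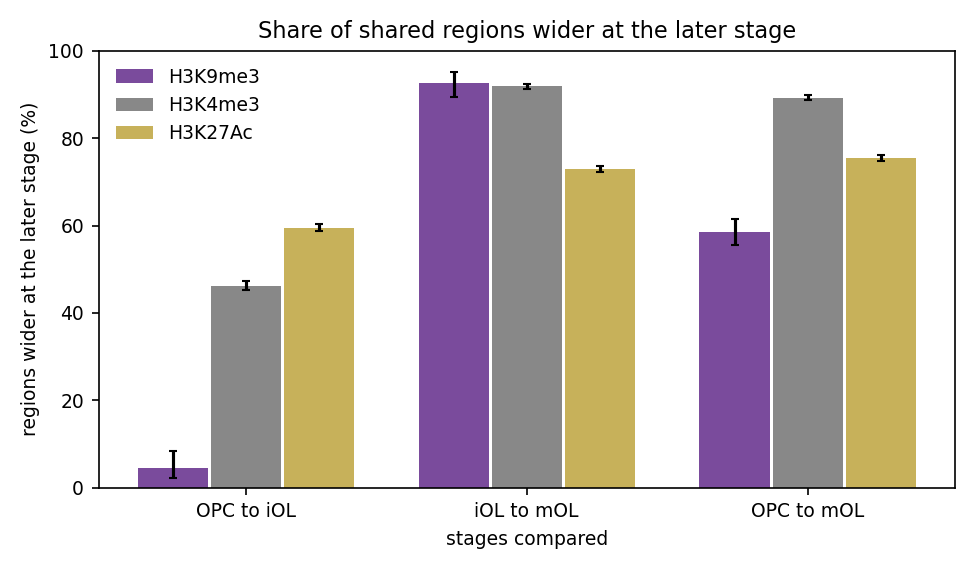
Percentage of regions, called at both stages of a pair, whose summed peak width was larger at the later stage, for H3K9me3 and, as a background, for H3K4me3 and H3K27Ac. Bars give the share of regions and error bars the Clopper-Pearson 95% interval. H3K9me3 stands at 4.63% from OPC to iOL, at 92.7% from iOL to mOL and at 58.5% from OPC to mOL.

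Peaks of different stages were mostly nested where iOL was involved, and mostly offset between OPC and mOL. Nesting is not independent of width, since a narrow peak fits inside a wider one more easily. The iOL width was the smaller at 206 of 216 regions with OPC and at 318 of 343 with mOL. Among regions with 1 peak of each stage, the iOL peak lay wholly inside the OPC peak at 128 of 198 (64.6%, 57.6 to 71.3) and wholly inside the mOL peak at 195 of 314 that overlapped directly (62.1%, 56.5 to 67.5). Between OPC and mOL, the OPC peak lay inside the mOL peak at 277 of 1041 regions (26.6%, 23.9 to 29.4) and the mOL peak inside the OPC peak at 161 (15.5%, 13.3 to 17.8). At the remaining 603 regions (57.9%) each peak reached beyond the other on 1 side. The centres of OPC and mOL peaks were 157 bp apart at the median, so these offsets were small beside the widths. Splitting of a stage into several peaks was uncommon. A region held 1 OPC peak in 1119 of 1129 cases, 1 iOL peak in 376 of 397 and 1 mOL peak in 1227 of 1256.

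Single regions show the range. The widest shared region, chr15:40037645-40046962, spanned 9318 bp as 1 unbroken mOL peak, and iOL had 3 peaks of 4142 bp in all inside it and OPC none. The widest region of all 3 stages, chr19:36278286-36285942, measured 5148 bp in OPC, 2648 bp in iOL and 7657 bp in mOL. The next in width, chr3:166997477-167004855, measured 5805 bp, 2390 bp and 5913 bp, so OPC and mOL were nearly equal there. The widest OPC and mOL region, chrX:129460345-129465748, went the other way, with 5404 bp in OPC and 3400 bp in mOL. The widest OPC and iOL region, chrX:130274349-130278237, had nearly the same width at both stages, 3861 bp and 3870 bp.

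Among regions of all 3 stages, the largest ratio of mOL to OPC width was 2.13, at chr9:112860739-112862456, which measured 805 bp in OPC, 814 bp in iOL and 1718 bp in mOL. It was also 1 of the 4 regions that widened at both steps. The others of this kind were chr8:93870287-93873191 (2252, 2735 and 2905 bp), chr7:9396416-9399400 (2562, 2671 and 2985 bp) and chr7:69808598-69810458 (1342, 1382 and 1643 bp). The smallest ratio was 0.46, at chr7:8412113-8414176, which measured 2064 bp in OPC, 1161 bp in iOL and 942 bp in mOL. An Olig2 peak of mOL met this region.

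Shared regions were mostly solitary at the scale of 10 kb. Chaining neighbours with gaps of up to 10 kb gave 37 clusters, 30 of 2 regions and 7 of 3, which held 81 of the 1310 shared regions (6.18%, 4.94 to 7.63). Over all 9540 merged regions the share with a shared region other than itself within 10 kb was 4.86%, and over single-stage regions it was 4.65% (4.21 to 5.13). By pattern, such a neighbour was found at 11.1% (4.19 to 22.6) of OPC and iOL, 10.5% (6.44 to 15.9) of iOL and mOL and 13.0% (8.21 to 19.1) of all-3-stage regions. For OPC and mOL regions it was 3.83% (2.68 to 5.29). The OPC and iOL interval, from 6 of 54 regions, overlaps that of OPC and mOL. Any H3K9me3 region, shared or not, lay within 10 kb of 24.9% (22.6 to 27.3) of shared and 21.5% (20.6 to 22.4) of single-stage regions. The 3 patterns with iOL were also the higher ones by this measure. Their values, in the order above, were 40.7% (27.6 to 55.0), 36.5% (29.5 to 43.9) and 37.0% (29.6 to 45.0), against 19.5% (17.0 to 22.2) for OPC and mOL. Clusters spanned 8.99 kb at the median and 22.4 kb at most, and 19 of the 37 held a region of all 3 stages.

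The 3 clusters with most regions, ranked by covered length among the 7 clusters of 3, were on different chromosomes. The first, at chrX:129034122-129053571, held 2 OPC and iOL regions and 1 OPC and mOL region over 19.45 kb, with 1 single-stage region between them. The next, at chr20:13687179-13702836, held 1 region of all 3 stages and 2 OPC and mOL regions over 15.7 kb. The last, at chr7:18044334-18066771, held 3 OPC and mOL regions over 22.4 kb. No peak of H3K4me3, H3K27Ac or Brg1 lay inside any of these spans, and Olig2 had peaks only in the chromosome 20 span, 2 in OPC and 2 in iOL.

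Density varied along the chromosomes. The genome-wide figure was 48.2 shared regions per 100 Mb (exact Poisson 95% interval 45.6 to 50.9). Chromosome 12 had the highest density, 105 per 100 Mb (77.5 to 139) from 49 regions, followed by chromosome 17 with 79.4 (62.7 to 99.2) from 77. Both were also dense in H3K9me3 regions as a whole, with 605 and 462 per 100 Mb against 351 over all chromosomes. The shared fraction of chromosome 12 was 17.3% (13.1 to 22.2), an interval that includes the overall 13.7%, and that of chromosome 17 was 17.2% (13.8 to 21.0). Chromosome X had the lowest, 13.7 (8.58 to 20.7) from 22 regions. The X chromosome was also sparse in H3K9me3 regions of any kind, with 128 per 100 Mb, and its shared fraction, 10.7% (6.81 to 15.7), differed from the overall 13.7% by less than its counting error. The share of peaks on X was 3.59% (2.97 to 4.30) in the OPC list, 2.42% (1.48 to 3.71) in iOL and 1.39% (1.13 to 1.69) in mOL. Of the 54 OPC and iOL regions 5 lay on X, against 12 of the 913 OPC and mOL regions. The sources used here do not state the sex of the pups.

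**Figure D3:**
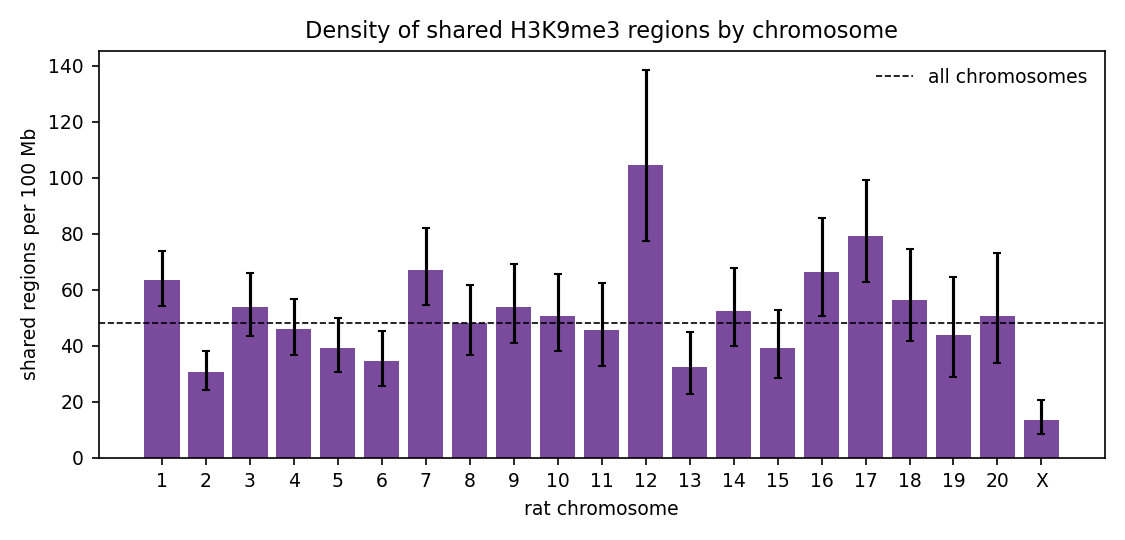
Shared H3K9me3 regions per 100 Mb of each rat chromosome, with the largest peak end over all lists as the chromosome length. Error bars are exact Poisson 95% intervals and the dashed line is the value over all chromosomes. Chromosome 12 stands highest at 105 and chromosome X lowest at 13.7.

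At the scale of 1 Mb a few bins stood out. Of 2729 bins, 848 (31.1%) held a shared region, 573 of them a single one, and 19 bins held 5 or more. Those 19 bins held 136 shared regions (10.4% of all). The richest bin, 75 to 76 Mb of chromosome 1, held 18, of which 11 were OPC and mOL regions and 6 were regions of all 3 stages, beside 35 single-stage regions. Which place ranked first depended on where bins began and on their size: with bins shifted by 500 kb it was a bin of chromosome 9 with 15, and with bins of 2 Mb a bin of chromosome 16 with 22. On chromosome 16 the bin from 20 to 21 Mb held 12 beside 13 single-stage regions, and the next, from 21 to 22 Mb, held 10 beside 30. The first Mb of chromosome 9 held 10 beside 9, and 129 to 130 Mb of chromosome X held 9 beside 19. In these 5 bins 35.8% of all H3K9me3 regions were shared, against 13.7% in the genome. They held 4.50% of shared and 1.29% of single-stage regions. These bins were picked for their number of shared regions, so both contrasts follow in part from the choice.

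The rich bins differed among themselves in active chromatin. The chromosome 1 bin had no peak of H3K4me3, H3K27Ac or Brg1 at any stage and none of Olig2 in OPC or iOL, but 5 Olig2 peaks in mOL. The chromosome X bin likewise had none of H3K4me3, H3K27Ac or Brg1, 1 Olig2 peak in OPC, none in iOL and 5 in mOL. The first Mb of chromosome 9 had 1 H3K27Ac peak in OPC, 1 in iOL and 3 in mOL, with 3, 2 and 5 Olig2 peaks. The chromosome 16 bin from 20 to 21 Mb was an active neighbourhood, with 13, 14 and 18 H3K27Ac peaks and 10, 9 and 13 H3K4me3 peaks, and yet no Brg1 peak. Its neighbour from 21 to 22 Mb had no H3K27Ac peak in OPC or iOL and 2 in mOL.

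Bins with few shared regions and bins with many were therefore set side by side. Bins with 1 shared region held a median of 14 H3K27Ac peaks of mOL (quartiles 7 and 25) and bins with 2 held 18 (11 and 25). Bins with single-stage regions only held 8 (3 and 18), and bins without H3K9me3 held 2 (0 and 5). The 19 bins with 5 or more shared regions held 7 (2 and 15). The same rise and fall was seen in the medians of Olig2 peaks of iOL, which were 2, 8, 12, 14, 13 and 2 from bins without H3K9me3 to bins with 5 or more. Brg1 and Olig2 were scarce in the 19 rich bins by the mean as well: Brg1 of iOL had 0.737 peaks per bin against 2.00 over all bins, and Olig2 of iOL 4.00 against 9.42. Olig2 of mOL had a higher mean, with 1.63 against 1.01, but 10 of the 19 rich bins had no such peak. Its median was 0 in the rich bins and in bins without H3K9me3, and 1 in each class between. The mean of H3K27Ac in mOL was 10.8 against 12.9 and that of H3K4me3 in mOL 7.89 against 6.39. These are descriptions of bins in single libraries. The amount of uniquely mappable sequence in each bin was not analysed here.

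**Figure D4:**
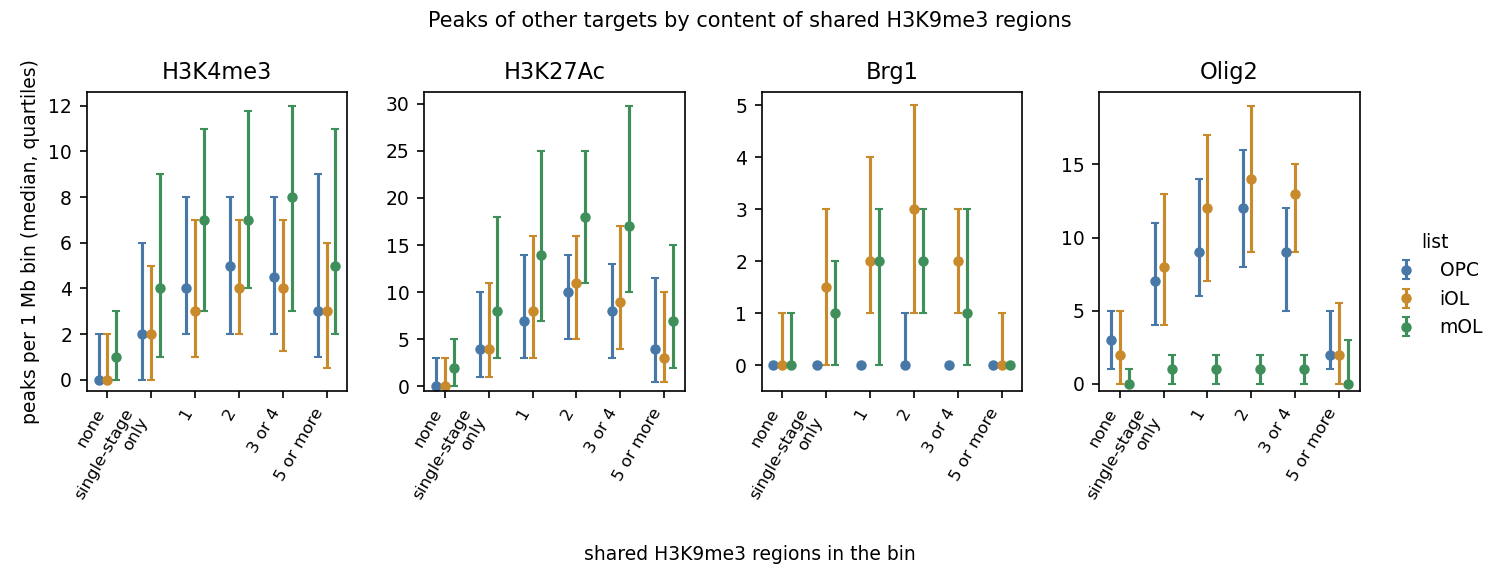
Peaks of H3K4me3, H3K27Ac, Brg1 and Olig2 per 1 Mb bin, for bins without H3K9me3 regions, with single-stage regions only, and with 1, 2, 3 or 4, and 5 or more shared regions. Points are medians over bins, bars the quartiles, and colours the stage of the list. Olig2 of iOL goes from 2 in bins without H3K9me3 to 14 in bins with 2 shared regions and back to 2 in bins with 5 or more.

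Few shared regions met any other target. Of the 1310, 87 (6.64%, 5.35 to 8.13) met a peak of at least 1 of the 14 other lists by 1 bp or more, where 4.88% of all merged regions and 4.61% (4.16 to 5.08) of single-stage regions did. RNA polymerase II in iOL, which has no part in the comparisons below, met 4 (background 0.189%). A wider region has more room to meet a peak, and over the middle 200 bp the values were 3.13% (2.26 to 4.22) for shared and 2.82% (2.47 to 3.20) for single-stage regions. The difference was 2.04 percentage points for whole regions (Newcombe 95% interval 0.722 to 3.58) and 0.311 points (-0.588 to 1.45) for the middle 200 bp.

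H3K4me3, the promoter mark, was close to absent. It met 8 shared regions at any stage (0.611%, 0.264 to 1.20), against 0.43% of all merged regions. By stage it met 4 in OPC (0.305%, background 0.199%), 3 in iOL (0.229%, background 0.168%) and 5 in mOL (0.382%, background 0.356%). Shared and single-stage regions differed by 0.123, 0.0710 and 0.0293 points, and each interval included 0. H3K4me3 of all 3 stages was found at 2 shared regions (0.153%) and at 8 single-stage regions (0.0972%). The 2 shared regions were chr20:30039716-30041424, a region of all 3 H3K9me3 stages that also met H3K27Ac of mOL, and chr8:96316013-96317200, an OPC and mOL region.

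H3K27Ac met 36 shared regions at any stage (2.75%, 1.93 to 3.78), against 2.44% of all merged regions. It met 9 in OPC (0.687%, background 0.608%), 14 in iOL (1.07%, background 0.985%) and 32 in mOL (2.44%, background 2.23%). The H3K27Ac lists themselves lengthened in the same order, with 19130, 21589 and 35268 peaks. In 19 of the 36 regions H3K27Ac was called in mOL alone, and in 4 at all 3 stages. Single-stage regions were split in a like way, with 101 of 197 in mOL alone and 30 at all 3 stages. Over all regions of each kind, mOL alone was found at 1.45% of shared and 1.23% of single-stage regions, and all 3 stages at 0.305% and 0.365%. The difference from single-stage regions was 0.354 points at any stage (-0.480 to 1.43). Over the middle 200 bp, where 13 of the 36 remained, it was -0.563 points (-1.07 to 0.177), and both intervals included 0. Among regions of 1270 bp or more, H3K27Ac met 3.53% (2.39 to 4.99) of shared and 4.04% (3.11 to 5.15) of single-stage regions.

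**Figure D5:**
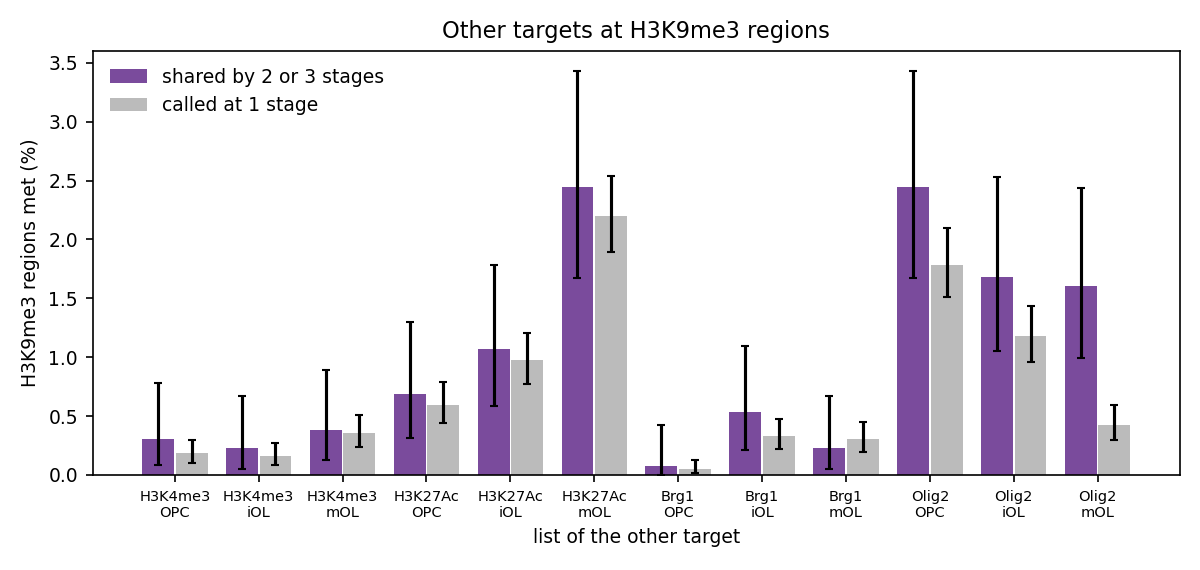
Percentage of H3K9me3 regions that met a peak of each other target and stage, for the 1310 shared and the 8230 single-stage regions, by 1 bp or more over the whole region. Error bars are Clopper-Pearson 95% intervals. Olig2 of mOL is the list where the intervals lie apart, at 1.60% and 0.425%.

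Brg1 was found at 8 shared regions at any stage (0.611%, 0.264 to 1.20), where 0.545% of all merged regions had it. By stage it met 1 in OPC (background 0.0524%), 7 in iOL (background 0.356%) and 3 in mOL (background 0.294%). The Brg1 lists held 452, 5465 and 4378 peaks in the same order. Shared and single-stage regions differed by 0.0761 points at any stage, with an interval of -0.276 to 0.681. Of the 8 regions, 7 also met Olig2 and 5 met H3K27Ac. None met H3K4me3. Such joint overlaps were not counted at single-stage regions with Brg1, so whether they are particular to shared regions was not tested. Over the middle 200 bp Brg1 was found at 2 shared regions (0.153%) and at 0.243% of single-stage regions, a difference of -0.0903 points (-0.263 to 0.321). The widest of the 8 was chr10:20842624-20845196, an OPC and mOL region of 2573 bp. It met Brg1 in iOL and mOL, Olig2 at all 3 stages and H3K27Ac in iOL and mOL. The next in width were chr8:10945035-10947560, with Brg1 of iOL and Olig2 of all 3 stages, and chr4:105842000-105844071, with Brg1 of iOL, Olig2 of OPC and iOL and H3K27Ac of all 3 stages.

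Olig2 was found more often than Brg1, but its lists hold 50447 peaks in all against 10295 for Brg1. The order was the same at single-stage regions, with 210 met by Olig2 and 44 by Brg1. Olig2 met 56 shared regions at any stage (4.27%, 3.25 to 5.52), against 2.79% of all merged regions. In OPC it met 32 (2.44%, background 1.88%) and in iOL 22 (1.68%, background 1.25%), and the intervals of both differences from single-stage regions included 0 (0.657 points, -0.115 to 1.68, and 0.501 points, -0.122 to 1.38). In mOL it met 21 shared regions (1.60%, 0.995 to 2.44; background 0.587%) and 35 single-stage regions (0.425%, 0.296 to 0.591), a difference of 1.18 points (0.601 to 2.02). Among regions of 1270 bp or more, which include 851 of the 1310 shared regions, Olig2 at any stage met 4.58% (3.28 to 6.21) of shared and 4.89% (3.86 to 6.09) of single-stage regions, so the higher share at any stage was not seen there. Olig2 of mOL met 1.53% (0.816 to 2.60) and 0.847% (0.452 to 1.44) of them, with overlapping intervals. Over the middle 200 bp the mOL counts were 15 and 24, a difference of 0.853 points (0.382 to 1.60). The mOL list is the shortest Olig2 list, with 2759 peaks against 21901 and 25787. Over the middle 200 bp the OPC list met 8 shared regions (0.611%) and 0.899% of single-stage regions, a difference of -0.288 points (-0.666 to 0.329). The iOL list met 3 (0.229%) and 0.292%, a difference of -0.0626 points (-0.270 to 0.390).

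The share met by Olig2 in mOL differed by place and by stage pattern. Of the 21 shared regions met by Olig2 in mOL, 6 lay within 0.634 Mb near the start of chromosome 9 and 5 within 1.37 Mb of chromosome X. Without chromosomes 9 and X the values were 10 of 1227 shared regions (0.815%) and 30 of 7660 single-stage regions (0.392%), a difference of 0.423 points (0.0159 to 1.11). By pattern, it met 3 of the 54 OPC and iOL regions (5.56%, 1.16 to 15.4), 6 of the 162 regions of all 3 stages (3.70%, 1.37 to 7.89), 3 of the 181 iOL and mOL regions (1.66%, 0.343 to 4.77) and 9 of the 913 OPC and mOL regions (0.986%, 0.452 to 1.86). The intervals of these small counts overlap. Among single-stage regions, Olig2 of mOL met 22 of the 2010 called only in OPC (1.09%, 0.687 to 1.65) and 12 of the 5816 called only in mOL (0.206%, 0.107 to 0.360). Against the regions called only in OPC, the shared regions differed by 0.509 points, with an interval of -0.276 to 1.42 that includes 0. The widest shared region with Olig2, chrX:130317611-130322573, was an OPC and mOL region with 4963 bp in OPC and 4747 bp in mOL and met Olig2 in mOL alone.

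The mOL Olig2 peaks at shared regions rarely overlapped Olig2 peaks of the earlier stages. Of the 22 such peaks, 4 met an Olig2 peak of OPC (18.2%, 5.19 to 40.3) and 4 an Olig2 peak of iOL (18.2%, 5.19 to 40.3). Of the 2705 mOL Olig2 peaks without H3K9me3, 90.1% (88.9 to 91.2) met one of OPC and 94.0% (93.0 to 94.8) one of iOL. The 32 peaks that met only a single-stage region stood between, at 56.2% (37.7 to 73.6) and 40.6% (23.7 to 59.4). H3K27Ac of mOL was found at 2 of the 22 (9.09%, 1.12 to 29.2), against 41.3% (39.4 to 43.1) of the peaks without H3K9me3, and Brg1 of mOL at 2, against 34.5% (32.7 to 36.4). Several of the 22 lay close together, so they are fewer independent places than peaks.

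A few shared regions carried many targets. The largest number of other lists met was 7 of 14, at chr10:20842624-20845196 and at chr16:22267999-22269422. The second of these is a region of all 3 stages with H3K9me3 widths of 1284, 911 and 1424 bp, and it met Brg1 in iOL and mOL, Olig2 at all 3 stages and H3K27Ac in OPC and iOL. A further 3 shared regions met 6 lists. At the other end, 1223 of 1310 met none (93.4%). Among single-stage regions 7851 of 8230 met none (95.4%). Exactly 6 lists were met by 0.229% of shared and 0.122% of single-stage regions, and 7 by 0.153% and 0.0243%. The most lists met by a single-stage region was 9, at 1 region, so meeting many lists was not particular to shared regions.

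Active marks were also set against the presence of H3K9me3 at the same stage. H3K27Ac of iOL met 4 of the 397 shared regions with an iOL H3K9me3 peak (1.01%, 0.275 to 2.56) and 10 of the 913 without one (1.10%, 0.526 to 2.01). For Olig2 of iOL the values were 6 of 397 (1.51%, 0.557 to 3.26) and 16 of 913 (1.75%, 1.00 to 2.83). The intervals overlap in both cases. No OPC peak of H3K27Ac or H3K4me3 met the 181 regions without H3K9me3 in OPC, and no mOL peak of these marks met the 54 without H3K9me3 in mOL. The exact upper limits of these zero shares were 2.02% and 6.60%. Both lie above the backgrounds, 0.608% for H3K27Ac and 0.199% for H3K4me3 in OPC and 2.23% and 0.356% in mOL. Olig2 of OPC met 3 of the 181 (1.66%, 0.343 to 4.77) and 29 of the 1129 with H3K9me3 in OPC (2.57%, 1.73 to 3.67). Olig2 of mOL met 3 of the 54 (5.56%, 1.16 to 15.4) and 18 of the 1256 with H3K9me3 in mOL (1.43%, 0.852 to 2.26). These intervals overlap too.

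Although they rarely overlapped active marks, shared regions lay somewhat nearer to them than single-stage regions did. The nearest H3K27Ac peak of OPC was 62.6 kb away at the median, against 86.6 kb, and the nearest of mOL 36.4 kb against 46.9 kb. By pattern, the OPC medians were 144 kb for OPC and iOL regions and 65.3 kb for OPC and mOL regions. They were 60.3 kb for iOL and mOL regions and 37.8 kb for regions of all 3 stages. The mOL medians, in the same order, were 105, 38.3, 29.0 and 25.8 kb. A H3K27Ac peak of iOL lay within 10 kb of 16.3% of shared and 12.9% of single-stage regions, a difference of 3.36 points (1.32 to 5.57). For OPC it was 14.2% and 11.7% (2.46 points, 0.538 to 4.57), and for mOL 20.8% and 20.1% (0.706 points, -1.58 to 3.14). H3K4me3 gave differences of 1.60, 2.13 and 1.99 points in OPC, iOL and mOL, each with an interval above 0. Brg1 of iOL lay within 10 kb of 8.32% and 6.51% (1.81 points, 0.324 to 3.51), whereas Brg1 of mOL gave -0.737 points (-1.91 to 0.662). Olig2 of mOL lay within 10 kb of 7.10% and 4.74% (2.36 points, 1.00 to 3.94), while Olig2 of OPC and iOL differed by 1.74 and 1.56 points with intervals that included 0. The 136 shared regions in the 19 rich bins varied by target. Their nearest H3K27Ac peak of mOL was 187 kb away at the median and their nearest Olig2 peak of iOL 299 kb. A Brg1 peak of mOL lay within 10 kb of 0 of the 136 (exact upper limit 2.68%), against 4.96% of all shared regions. The 136 lie in 19 bins, and the limits treat them as independent. An H3K4me3 peak of OPC lay within 10 kb of 6.62% (3.07 to 12.2), against 6.95% of all shared regions. An Olig2 peak of mOL lay within 10 kb of 14.7% (9.22 to 21.8), against 7.10% of all shared regions.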

How the data were processed

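Each sample had 1 deposited list of peaks from the authors, with chromosome, start and end in base pairs and no score or header. The submitters' processing notes name the peak caller MACS 1.4.0 and the rat build rn4. No aligner, threshold, control library, filter or pooling step is given in the sources used here, and libraries were grouped by their titles. The shared regions and the comparisons were chosen with earlier results of these data known. Starts were made 1-based by adding 1. Overlap meant at least 1 bp. Distances are gaps between nearest edges, and bins were assigned by the centre of a region. The regions named follow set rules: the 3 widest of a pattern or of those meeting a target, extreme width ratios, the 3 largest clusters, the 5 richest bins and the most lists met. The 4 regions that widened at both steps were named after their values were seen. With 1 library per stage no test between stages was made. H3K9me3 lists held no unplaced sequence. Sequence, repeats and genes under the regions were not analysed here.

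The overlap, merging, clustering and distance steps were tested on simulated lists and against bedtools 2.31.1 in 41 comparisons, of which 0 differed. Python 3.11.15 with numpy 2.4.6, pandas 2.3.3, scipy 1.17.1 and matplotlib 3.10.9 was used.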

Additional observations from a re-analysis of the deposited data

Results flagged for a closer look

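RNA polymerase II was outside the comparisons above. A peak of its iOL list met 4 of the 1310 shared regions (0.305%, 0.0833 to 0.780), above the 0.229% that 3 counts would give, while 0.189% of all merged regions and 0.170% of single-stage regions met one. The OPC list, with 332 peaks, met 0 shared regions. The exact upper limit, 0.281%, lies above the 0.0943% of all merged regions that met one. The 4 regions include chr2:187230088-187237681, an iOL and mOL region that measured 1948 bp in iOL and 7594 bp in mOL. The difference between shared and single-stage regions was 0.135 points with an interval of -0.0840 to 0.617, and over the middle 200 bp the count was 2.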

How the results depend on the processing

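The 1310 shared regions became 786 when only the middle 200 bp of a peak was used, 731 when the narrower 50% of every list was dropped, and 355 with an equal number of the widest peaks per list. Fewer or shorter peaks were used there by construction. Another member lay within 5 kb of 3.44% and within 50 kb of 19.2%. The richest bin changed place, to chromosome 9 (15 shared regions) with bins shifted by 500 kb and to chromosome 16 (22) with bins of 2 Mb, and stayed on chromosome 1 (12) with bins of 500 kb. The shares meeting a target at any stage moved as follows. With at least 50% of the shorter interval shared, H3K27Ac was found at 1.76%, Brg1 at 0.153% and Olig2 at 2.29%. Within 1000 bp they were 5.27%, 2.52% and 8.09%, and Olig2 of mOL 2.44%. In the middle 200 bp of each region they were 0.992%, 0.153% and 1.91%. With the wider 50% of the other list, H3K4me3 was at 0.229%, H3K27Ac at 1.91% and Olig2 at 3.13%. With the middle 200 bp of the other peak, H3K27Ac was at 1.83%, Brg1 at 0.229% and Olig2 at 2.37%. The Olig2 difference in mOL ranged from 0.423 to 1.32 points with intervals above 0, except against regions called only in OPC, where it was 0.509. That comparison, the one without chromosomes 9 and X and the middle of the other peak were added after the data had been seen. In the other 40 of 62 recomputed values, including all width shares, a share stayed within its interval, a count within 1.5 times and the Olig2 difference on its side of 0. Of 66 recomputed shares by single stage, 26 moved beyond their interval. The cause was not tested. No paired analysis was possible because each target and stage has 1 library. Unknown depth limits every statement on a stage without a call.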
